A study of Mus musculus with 8 samples.

Results

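The RUNX factors, their downstream partner SP7, the MEF2 factors and the class IIa histone deacetylases were followed in mouse rib chondrocytes carrying base changes in Mir140. They are represented by 10 genes, Runx1, Runx2, Runx3, Sp7, Mef2a, Mef2c, Mef2d, Hdac5, Hdac7 and Hdac9, picked by symbol from the 18501 genes of the expression table. All 10 passed the filter on low counts, which 14359 genes passed. The study holds 8 libraries of plated rib cartilage cells from 10-day-old CD1 mice, in 4 groups of 2. The CT mutants carry a C>T change in Mir140, and the CT wild types are the controls of that line. The CG mutants carry a mutation in the seed region of the 3p arm of Mir140, and the CG wild types are the controls of that second line. The labels call both mutants overexpressors of the 5p arm, and they do not say whether replicate libraries came from separate animals or cultures, so a p-value here speaks only of differences beyond library-to-library spread, part of which can be technical.

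RUNX proteins bind DNA as heterodimers with CBFB and recognise the core TGTGGTT or its reverse complement AACCACA. In the growth plate, RUNX2 with RUNX3 drives chondrocytes into hypertrophy and turns on Col10a1 and Mmp13, and SP7 acts downstream of RUNX2 in the step to bone. MEF2C feeds the same programme and acts upstream of Runx2, whereas class IIa deacetylases bind MEF2 and RUNX2 and hold them in check. Phosphorylation by salt-inducible, calmodulin-dependent and protein kinase D enzymes moves these deacetylases out of the nucleus on 14-3-3 proteins, and parathyroid hormone receptor signalling opposes that export in chondrocytes.

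A RUNX core lay in promoters of the RUNX genes themselves. The sequences below are RefSeq promoters on GRCm38.p6, each 250 bases before to 50 after a gene start, with every TGTGGTT or AACCACA in capitals. They are shown because 1 promoter of each RUNX gene carries 2 cores whose starts are 8 bases apart.
Runx1, chr16:92826025-92826324, minus strand: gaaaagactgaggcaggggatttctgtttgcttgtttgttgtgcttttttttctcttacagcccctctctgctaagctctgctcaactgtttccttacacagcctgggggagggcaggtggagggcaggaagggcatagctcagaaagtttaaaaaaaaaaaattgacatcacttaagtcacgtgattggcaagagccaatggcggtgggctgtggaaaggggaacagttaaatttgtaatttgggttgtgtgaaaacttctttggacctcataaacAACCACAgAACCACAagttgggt
Runx2, chr17:44814578-44814877, minus strand: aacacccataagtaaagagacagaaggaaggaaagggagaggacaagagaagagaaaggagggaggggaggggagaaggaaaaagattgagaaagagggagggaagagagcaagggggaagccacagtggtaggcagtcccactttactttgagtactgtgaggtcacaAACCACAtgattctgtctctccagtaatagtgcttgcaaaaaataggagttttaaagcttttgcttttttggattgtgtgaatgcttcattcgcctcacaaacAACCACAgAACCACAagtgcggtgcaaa
Runx3, chr4:135120395-135120694, plus strand: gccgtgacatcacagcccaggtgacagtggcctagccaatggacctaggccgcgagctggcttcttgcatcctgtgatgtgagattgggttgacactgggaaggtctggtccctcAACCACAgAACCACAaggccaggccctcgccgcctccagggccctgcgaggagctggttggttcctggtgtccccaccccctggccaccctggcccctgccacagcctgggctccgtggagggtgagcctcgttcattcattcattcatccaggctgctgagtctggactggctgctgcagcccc
The promoter table held 17 promoters for 9 of the 10 genes, with none for Sp7. Searched on both strands, the 7-letter core stood in 3 of those 17, the ones above, and in 5.27% of all 32851 promoters. Counting the gene's start base as 0, the cores began at 27 and 35 in Runx1, at -81, 22 and 30 in Runx2, and at -135 and -127 in Runx3. A pair 8 bases apart occurred in 5 promoters of the table, 0.0152% of it, and 3 of those 5 belonged to Runx1, Runx2 and Runx3. The spacing counted was the one seen in these RUNX promoters, so that this share is a description and not a test. No binding of a factor was measured in this study, and these matches describe letters only.

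A loose form of the MEF2 core was searched, CTANNNNTAG, which allows any base at N and reads as the same pattern on both strands. It stood in 3.69% of promoters and in 1 promoter each of Mef2a, Hdac5 and Hdac9. The 50-base windows around it are shown because they place this pattern at a MEF2 gene and at genes of deacetylases that bind MEF2, with the match in capitals.
Mef2a: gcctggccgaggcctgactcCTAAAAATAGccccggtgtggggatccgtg
Hdac5: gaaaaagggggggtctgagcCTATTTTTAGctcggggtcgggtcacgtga
Hdac9: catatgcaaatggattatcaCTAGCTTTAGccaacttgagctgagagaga
These come from the promoters at chr7:67372809-67373108, chr11:102230123-102230422 and chr12:34528840-34529139, all on the minus strand of GRCm38.p6, and the matches began at -2, -20 and -32. The MEF2 core itself has A or T at the 4 free letters, which held in Mef2a and Hdac5. It did not hold in Hdac9, whose stretch matches the loose pattern only and is not a MEF2 core.

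The seed altered in the CG line belongs to miR-140-3p, printed 5′ to 3′ with its seed, bases 2 to 8, in capitals. RefSeq places it at chr8:107551288-107551308 on the plus strand of GRCm38.p6.
miR-140-3p: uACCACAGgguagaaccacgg
The DNA letters that pair with this seed are CTGTGGT, which hold 6 letters of the RUNX core. They occurred in the longest 3′ UTR of 17.7% of 20866 mouse genes in GENCODE M21, and in 4 of the 10 genes, once each. The UTRs of the 10 genes were 1036 to 4724 bases long, whereas the 20866 include UTRs from 50 bases. A match is more frequent in a longer UTR, and these shares were not adjusted for length. The sites are shown with 10 bases on each side because a change of the seed alters this pairing.
Runx2: gaaaagtgttCTGTGGTctctgagttg
Mef2a: gctctcctctCTGTGGTctcaacactc
Hdac5: gaccaacccaCTGTGGTgaagcacctc
Hdac7: acacccctagCTGTGGTctccatccct
The 3′ UTRs of Runx1, Runx3, Sp7, Mef2c, Mef2d and Hdac9 held no such match.

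Estimated counts summed to 27297539 to 28678641 in CT libraries and to 26536868 to 28267472 in CG libraries. In a principal component analysis the first component, with 64.5% of the variance, separated the CT from the CG libraries, and the second, with 12.2%, set CG mutant 1 apart from the other libraries. Levels of a gene between libraries are given as CPM, its count scaled to the size of the library. All 11 chondrocyte markers exceeded 1 CPM in every library, with summed levels of 40560 to 60350 CPM in CT libraries and 31200 to 53670 CPM in CG libraries. Col2a1 gave most of each sum, at 30880 to 50160 CPM in CT libraries and 24140 to 41090 CPM in CG libraries. The 8 osteoblast markers summed to 13.5 to 20.02 CPM in CT libraries and 5.19 to 21.3 CPM in CG libraries, with Alpl alone over 1 CPM in every library and Ifitm5, Phex and Sost under 1 CPM in every library. Y-linked Ddx3y had 3512 and 30 counts in CT mutants, 3669 and 10 in CT wild types, 2231 and 2360 in CG mutants and 2 and 2511 in CG wild types. Outside the CG mutants, the 2 libraries of a group therefore came from different animals.

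By the authors' FPKM, which is per transcript length, 1 or 2 members dominated each family. Over the 8 libraries Mef2d, an activity-dependent MEF2 factor, ran at 31.8 to 41.4 FPKM. Runx1, the RUNX factor best known from blood stem cells and also present in immature cartilage, ran at 20.8 to 50.7 FPKM, so that these ranges overlapped. Mef2a followed at 15.3 to 26.4 FPKM, overlapping the low end of Runx1 and lying below all Mef2d values. Hdac7, Runx3 and Hdac5 came next at 7.84 to 14.4, 8.77 to 14.4 and 8.91 to 13.8 FPKM, with no order among them beyond their spread. Runx2, the main driver of hypertrophy, was well below them at 3.57 to 5.30 FPKM. The lowest were Sp7 at 0.95 to 2.33 FPKM, Hdac9 at 0.92 to 2.20 FPKM and Mef2c at 0.50 to 1.08 FPKM, whose ranges overlapped. The 3 best-known regulators of the hypertrophic step, Runx2, Sp7 and Mef2c, were thus among the 4 lowest of these genes per length.

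Within families, Runx1 made up 61.8% ± 2.28 of RUNX FPKM in CT mutants, 60.03% ± 3.28 in CT wild types, 75.6% ± 4.49 in CG mutants and 70.3% ± 3.06 in CG wild types (SD, n = 2 each). Mef2d made up 56.5% of MEF2 FPKM in CT mutants, 56.4% in CT wild types, 64.8% in CG mutants and 62.7% in CG wild types, with Mef2a holding most of the rest. Among class IIa deacetylases, Hdac5 held 34.4% and Hdac7 46.7% in CT mutants, whose libraries did not overlap between these genes, against 41.4% and 39.4% in CT wild types. Hdac5 held 40.3% and Hdac7 35.5% in CG mutants, against 38.2% for each in CG wild types. Hdac9 held 4.22% in CT mutants, 3.60% in CT wild types, 6.48% in CG mutants and 4.28% in CG wild types. The Runx1 share was farther apart between the lines than between mutants and wild types of a line, a difference given without a test.

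**Figure D1:**
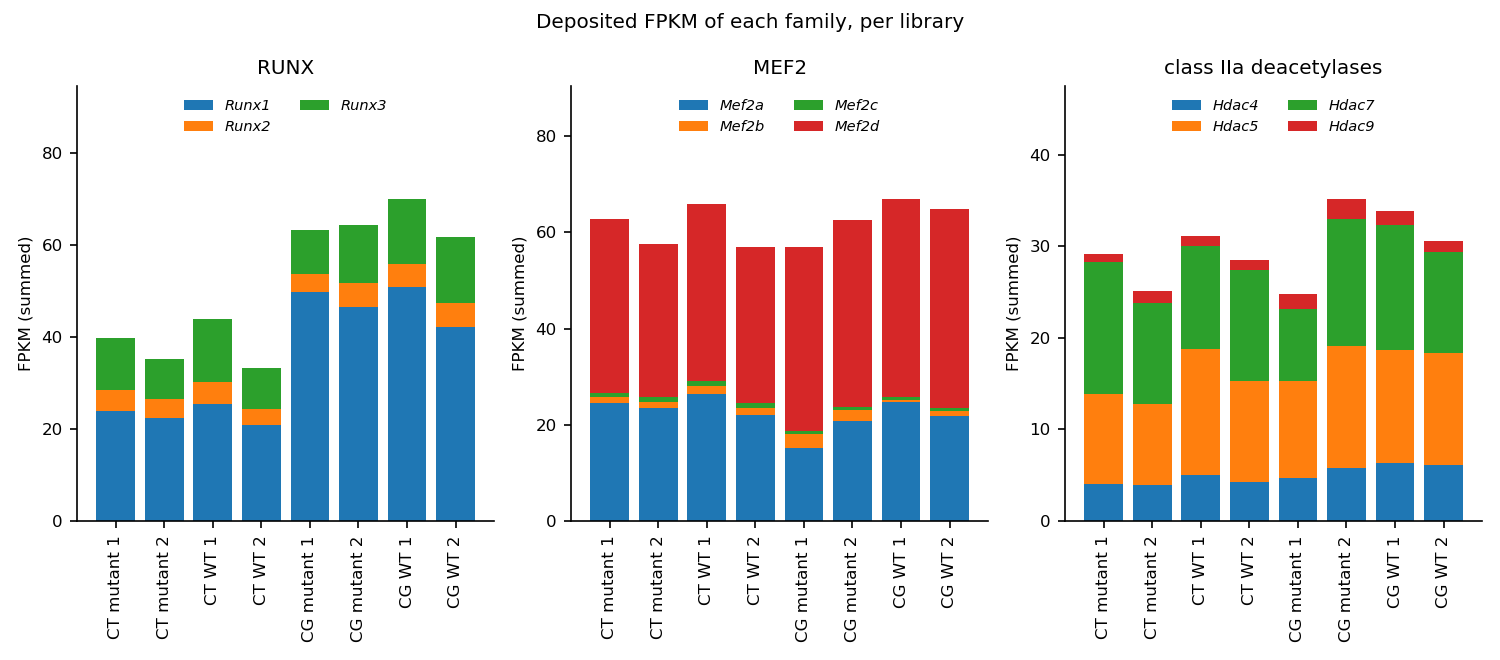
Stacked bars give the authors' FPKM of the RUNX, MEF2 and class IIa deacetylase genes in each of the 8 libraries, with no error since each bar is 1 library. Runx1 forms the largest block of every RUNX bar and ran at 20.8 to 25.3 FPKM in CT libraries against 42.1 to 50.7 FPKM in CG libraries.

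The comparison of mutants with the wild types of their line asks what the Mir140 change does. None of the 10 genes passed an edgeR adjusted p of 0.05 in the CG line, where 0.00696% of all tested genes passed. The same held in the CT line, where again 0.00696% passed. Before adjustment 3 of the 10 were under 0.05 in the CG line, namely Sp7, Mef2a and Hdac9, and 1 in the CT line, Hdac5, next to 1633 and 734 of all 14359 genes. DESeq2 called none of the 10 in either line. Sp7 had the largest fitted difference, with higher values in the mutants of both lines, and Hdac9 in the CG line and Hdac5 in the CT line followed.

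**Figure D2:**
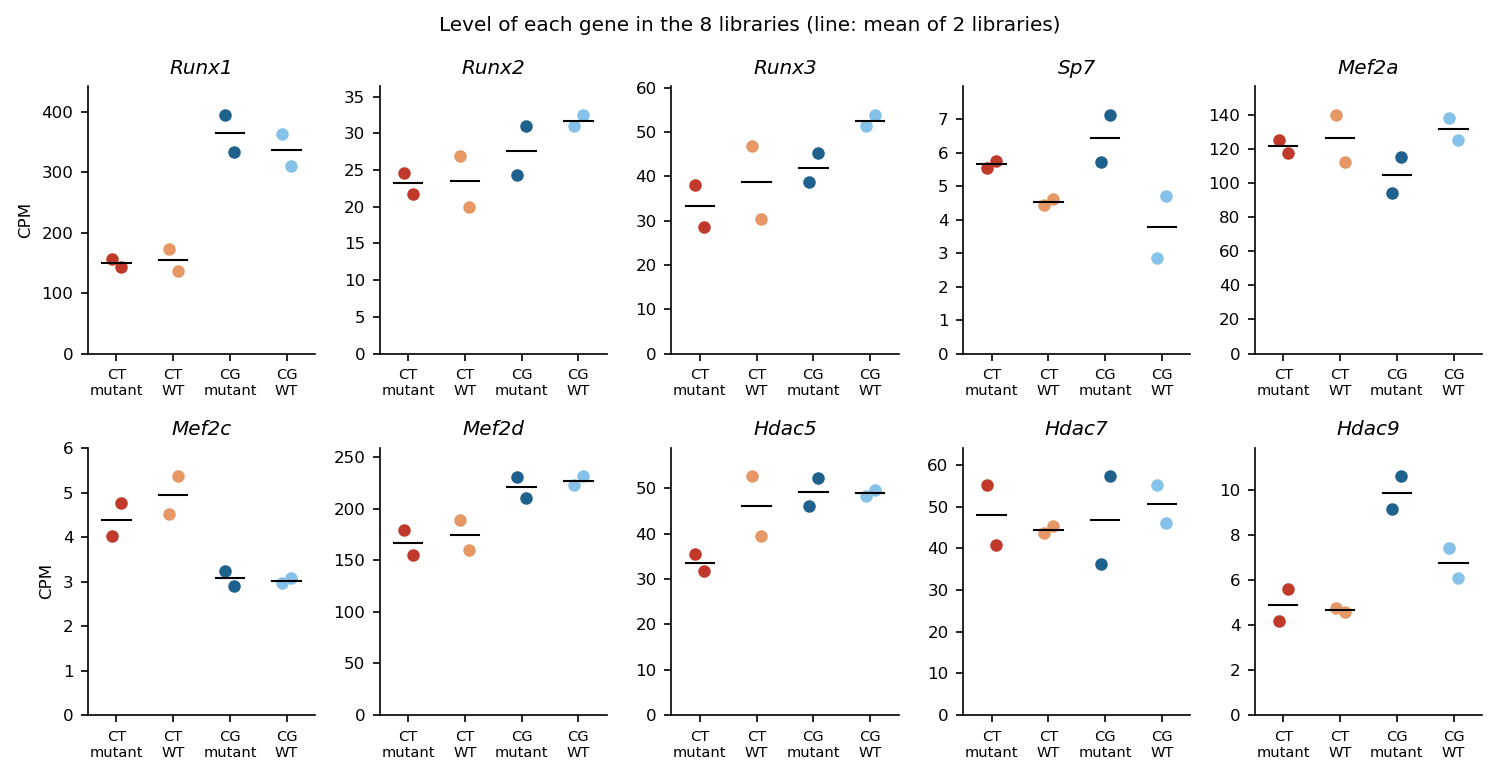
CPM of each gene in each library, with points for libraries and a bar for the mean of 2, on axes from 0. Sp7 lies higher in mutants than in wild types in both lines, and Runx1, Mef2c, Mef2d and Hdac9 separate the CT from the CG libraries.

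Sp7, also called osterix, encodes the zinc-finger factor that osteoblasts need. CT mutants had 5.56 and 5.75 CPM and CT wild types had 4.44 and 4.62 CPM. In the CG line it had 5.73 and 7.14 CPM in mutants, against 2.86 and 4.71 CPM in wild types. Mutants lay above wild types within each line, and the lowest library of all was CG wild type 1. Of all genes tested, 33.6% in the CT line and 45.6% in the CG line also had no overlap, in either direction. The log2 fold change was 0.32 ± 0.25 (SE, n = 2 against 2 libraries) in the CT line (edgeR adjusted p = 0.976), and 0.77 ± 0.25 in the CG line (edgeR adjusted p = 0.341). Averaged over the lines it was 0.54 ± 0.18 (edgeR adjusted p = 0.337), and the effects of the lines differed by 0.45 ± 0.36. The CG value was 0.45 without CG wild type 1 and 1.17 without CG wild type 2. Sp7 thus missed the threshold in each comparison, and its counts were low. In the average over lines 0% of genes passed, although 1646 genes were under 0.05 before adjustment and DESeq2 found 206, none of them among the 10.

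Hdac9, which encodes a class IIa deacetylase with short isoforms that lack the catalytic domain, had 9.14 and 10.6 CPM in CG mutants, against 7.43 and 6.11 CPM in CG wild types. In the CT line it had 4.18 and 5.62 CPM in mutants, against 4.76 and 4.59 CPM in wild types. Mutants lay above wild types in the CG line and overlapped them in the CT line. The log2 fold change in the CG line was 0.54 ± 0.20 (edgeR adjusted p = 0.369), and in the CT line it was 0.07 ± 0.20. The difference between the lines was 0.48 ± 0.29, and the edgeR adjusted p was at least 0.967 for this and for each of the other 9 genes.

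Hdac5, a signal-responsive repressor of MEF2, showed its larger difference in the other line. CT mutants had 35.4 and 31.8 CPM and CT wild types had 52.7 and 39.4 CPM, and both mutant values were the lowest of the 8 libraries. CG mutants had 46.0 and 52.2 CPM, against 48.4 and 49.7 CPM in CG wild types. The log2 fold change was -0.45 ± 0.14 in the CT line (edgeR adjusted p = 0.958), and 0.00 ± 0.14 in the CG line. The CT value was -0.23 without CT wild type 1 and -0.65 without CT wild type 2. Hdac4, the family member with the best-known role in chondrocytes and not one of the 10, was at a log2 fold change of -0.26 ± 0.11 in the CT line and -0.20 ± 0.11 in the CG line, and passed in neither.

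Runx3, which acts with RUNX2 in hypertrophy, had 38.6 and 45.2 CPM in CG mutants, against 51.2 and 53.9 CPM in CG wild types. Mef2a, a broadly expressed MEF2 factor, had 94.5 and 115.6 CPM in CG mutants, against 138.0 and 125.6 CPM in CG wild types. For both genes the mutants lay below the wild types, with CG mutant 1 the lowest of the 4 libraries. CG mutant 1 also had the highest chondrocyte marker sum of the CG libraries, at 53670 CPM, and their lowest sum for every other cell type. These included 21.4 CPM for skeletal muscle and 14.8 CPM for endothelial markers. The part of cell make-up in the mutant comparisons of the CG line was not tested. The log2 fold change was -0.33 ± 0.21 for Runx3 (edgeR adjusted p = 0.593), and -0.33 ± 0.14 for Mef2a (edgeR adjusted p = 0.423). In the CT line the mutants and wild types overlapped for both genes, at log2 fold changes of -0.21 ± 0.21 and -0.05 ± 0.14.

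Runx2 itself stood at 24.5 and 21.8 CPM in CT mutants and at 26.9 and 19.95 CPM in CT wild types. It had 24.3 and 31.0 CPM in CG mutants, against 30.9 and 32.5 CPM in CG wild types. The groups overlapped in both lines, by little in the CG line, where CG mutant 1 was low and CG mutant 2 matched the wild types. The fitted log2 fold changes were -0.02 ± 0.17 in the CT line and -0.20 ± 0.17 in the CG line. Hdac7 had 55.1 and 40.7 CPM in CT mutants, next to 43.8 and 45.3 CPM in CT wild types, and 36.3 and 57.3 CPM in CG mutants, next to 55.1 and 46.0 CPM in CG wild types. The CG mutants thus held both the lowest and the highest Hdac7 value of the study. Hdac7, Runx1, Mef2c and Mef2d had log2 fold changes of -0.17 to 0.11 in both lines.

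In the CG line, mutants and wild types did not overlap in CPM for 4 of the 10 genes, Sp7 and Hdac9 above and Runx3 and Mef2a below, against 45.6% of all genes tested. In the CT line this held for 2 of the 10, Sp7 above and Hdac5 below, against 33.6% of all genes. Neither share was above that of all genes. For the difference between the mutant effects of the lines 0.0209% of genes passed, and 0 of the 10 by edgeR, by DESeq2 or under 0.05 before adjustment. Of the 4 genes with a miR-140-3p seed match, Runx2, Mef2a and Hdac7 had negative fitted values in the CG line, at -0.20 ± 0.17, -0.33 ± 0.14 and -0.11 ± 0.22, and Hdac5 was at 0.00 ± 0.14. Without CG mutant 1 these values were -0.04 for Runx2, -0.19 for Mef2a and 0.18 for Hdac7. Of the genes with no match, Runx3 and Mef2d were also negative, at -0.33 ± 0.21 and -0.04 ± 0.12.

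**Figure D3:**
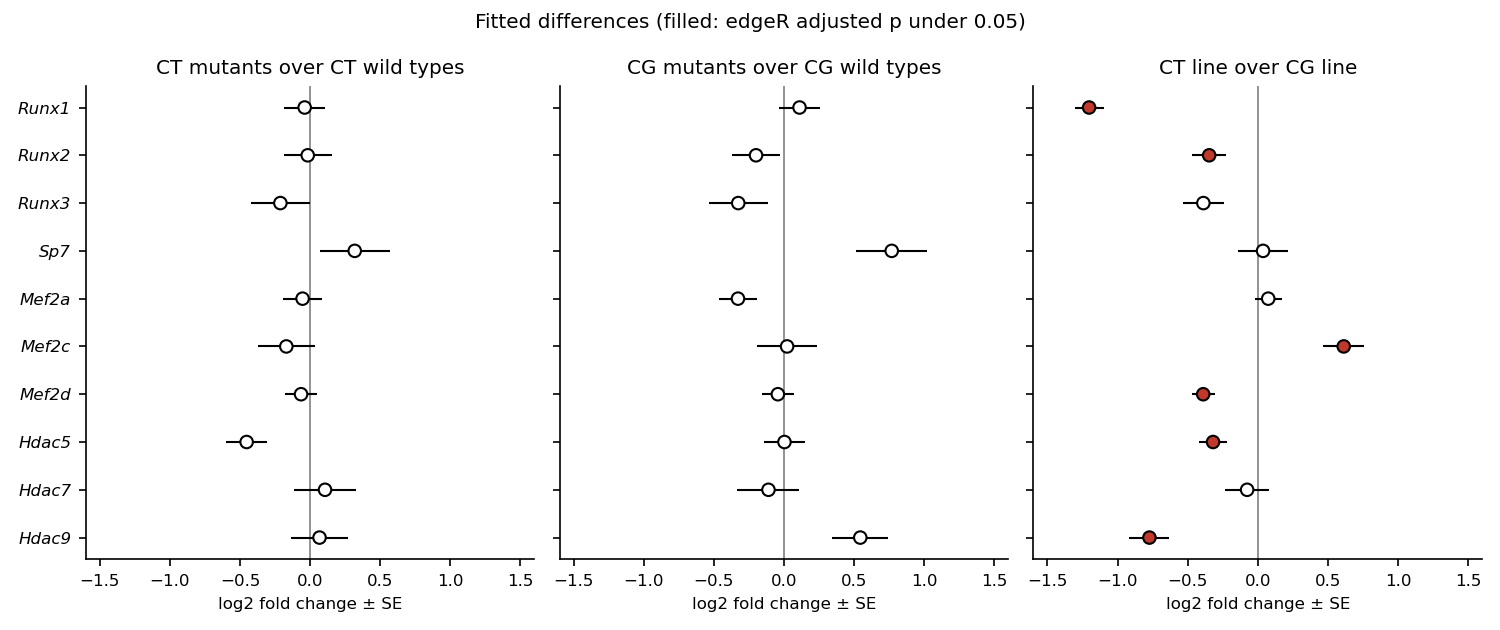
Fitted log2 fold changes with their standard errors for the 10 genes, for CT mutants over CT wild types, CG mutants over CG wild types and the CT over the CG line. Filled points passed an edgeR adjusted p of 0.05, which only 6 points of the line comparison did, with Runx1 at -1.20 the farthest from 0.

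Between the lines, with mutants and wild types weighted equally, 6 of the 10 genes passed: Runx1, Runx2, Mef2d, Hdac5 and Hdac9 were lower in the CT line and Mef2c was higher. Over all genes tested 52% passed, so that a share of 6 in 10 is near the background, and what follows describes sizes. The median log2 fold change was -0.33 over the 10 genes and -0.01 over all genes tested. Of all calls 50.2% were higher in the CT line, a split that became 69% with limma on log2(FPKM + 1), where the median of all genes moved to 0.11. Genotype line and anything else that differed between the lines, such as the culture, the date or the background of the mice, cannot be told apart.

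Runx1 showed the largest difference. It had 156.8 and 143.5 CPM in CT mutants and 172.2 and 136.3 CPM in CT wild types, against 395.3 and 333.1 CPM in CG mutants and 363.1 and 311.1 CPM in CG wild types. Every CT library lay below every CG library, and in both genotypes. The mean was 152.2 ± 15.8 CPM in the CT line and 350.7 ± 36.6 CPM in the CG line (SD, n = 4 each), a 2.30-fold lower level in the CT line, with a log2 fold change of -1.20 ± 0.10 (edgeR adjusted p = 8.57e-05). In bulk RNA, fewer cells with the transcript and less of it per cell cannot be told apart.

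The other RUNX genes differed less. Runx2 averaged 23.3 ± 3.05 CPM in the CT line and 29.7 ± 3.66 CPM in the CG line, a log2 fold change of -0.35 ± 0.12 (edgeR adjusted p = 0.0424). Runx3 averaged 35.97 ± 8.31 CPM in the CT line and 47.2 ± 6.78 CPM in the CG line, a log2 fold change of -0.39 ± 0.15 (edgeR adjusted p = 0.0582). The lines overlapped for both genes, and their calls moved with the settings: Runx2 was not called on FPKM or in 6 of 8 fits that left out 1 library, whereas Runx3 was called by DESeq2. Sp7 averaged 5.09 ± 0.66 CPM in the CT line and 5.11 ± 1.80 CPM in the CG line.

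Mef2c, which promotes chondrocyte hypertrophy, was the only gene of the 10 higher in the CT line by the test. It had 4.02 and 4.77 CPM in CT mutants and 4.51 and 5.37 CPM in CT wild types, against 3.24 and 2.90 CPM in CG mutants and 2.97 and 3.07 CPM in CG wild types. Every CT library lay above every CG library, at 1.53-fold by the fit, with a log2 fold change of 0.61 ± 0.15 (edgeR adjusted p = 0.00907). Mef2d went the other way, with 179.8 and 155.0 CPM in CT mutants and 189.6 and 160.6 CPM in CT wild types, against 230.7 and 211.0 CPM in CG mutants and 223.3 and 231.8 CPM in CG wild types. Its lines did not overlap either, at a log2 fold change of -0.39 ± 0.08 (edgeR adjusted p = 0.00517). Mef2a had a line difference of 0.07 ± 0.10 (edgeR adjusted p = 0.544).

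Among the deacetylases, Hdac9 was 1.71-fold lower in the CT line, with a mean of 4.79 ± 0.60 CPM against 8.32 ± 1.97 CPM in the CG line. The log2 fold change was -0.77 ± 0.14 (edgeR adjusted p = 0.00279), and the libraries of the lines did not overlap. Hdac5 averaged 39.8 ± 9.10 CPM in the CT line and 49.1 ± 2.60 CPM in the CG line, at a log2 fold change of -0.32 ± 0.10 (edgeR adjusted p = 0.0301). CT wild type 1, at 52.7 CPM, was the highest of all 8 libraries for Hdac5, so that the lines overlapped, and the call was lost on FPKM and in 5 of 8 fits that left out 1 library. Hdac7, which is known to restrain beta-catenin in proliferating chondrocytes, had a line difference of -0.08 ± 0.16, which became 0.09 on log2(FPKM + 1). Hdac4 was lower in the CT line as well, at -0.58 ± 0.08 (edgeR adjusted p = 0.000726).

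The CPM of the lines did not overlap for 4 of the 10 genes, Mef2c above and Runx1, Mef2d and Hdac9 below, against 46.8% of all genes. These 4 were also the genes called in every alternative fit and with any 1 library left out. The authors' deposited table of comparisons, with 2655 genes, lists none of the 10. For CT against CG wild types the authors' deposited table holds 32 genes lower and 2047 higher in CT wild types at a q under 0.05. Of the calls here 50.2% were higher in the CT line, but these cover mutants as well as wild types. Few genes lower in CT wild types thus reach that q in the authors' table. Mef2c, called higher in the CT line here, is not listed there either.

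Markers of chondrocytes and of other cell types also differed between the lines, a comparison in which 52% of all genes tested passed in either direction. Of 11 chondrocyte markers 6 were called higher in the CT line and 0 lower. The higher ones included Comp, at a log2 fold change of 2.00 ± 0.09, and Col9a1, at 1.93 ± 0.16. Skeletal muscle markers, of which 6 of 8 tested were called lower in the CT line and 1, Tnnt3, higher, summed to 17.9 and 20.1 CPM in CT mutants and 17.2 and 21.9 CPM in CT wild types, against 21.4 and 94.3 CPM in CG mutants and 64.7 and 60.5 CPM in CG wild types. Endothelial markers, of which 6 of 8 were called higher, summed to 64.3 to 117.7 CPM in CT libraries and 14.8 to 42.8 CPM in CG libraries. Erythroid and megakaryocyte markers, of which 3 of 7 were called higher, summed to 644.3 to 1217 CPM in CT libraries and 5.69 to 20.8 CPM in CG libraries. MEF2 factors and Hdac9 are known from muscle and MEF2C and RUNX1 from endothelium and blood, and the part of these cells in the line differences was not tested. Macrophage and leukocyte markers summed to 307.1 to 362.5 CPM in CT libraries and 330.1 to 559.7 CPM in CG libraries, most of it from Cd14, at 241.5 to 315.1 CPM in CT libraries and 317.2 to 526.7 CPM in CG libraries. Cd14 was called lower in the CT line, whereas 4 of the 9 tested markers, Ptprc, Itgam, Tyrobp and Laptm5, were called higher, with a list median of 0.66. Fibroblast and perichondrium markers summed to 1973 to 2656 CPM in CT libraries and 2487 to 3356 CPM in CG libraries. Of these 8 markers 4 were called higher in the CT line, Col1a1, Col3a1, Pdgfra and Tnmd, and 1, Dcn, was called lower. Their part in the line differences was not tested either.

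**Figure D4:**
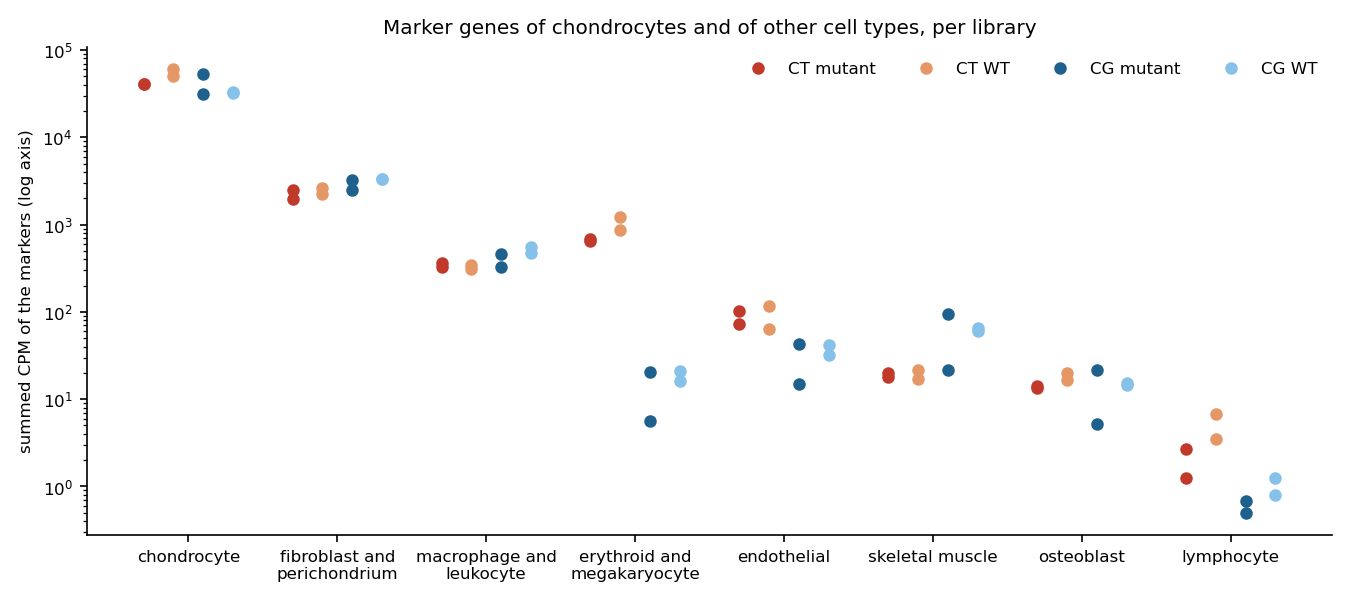
Summed CPM of marker genes of chondrocytes and of 7 other cell types in each library, on a log axis. Chondrocyte markers exceed all others in every library, erythroid and endothelial sums are higher in the CT libraries, and the muscle sum of CG mutant 1, at 21.4 CPM, lies with the CT libraries.

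RUNX cofactors and corepressors passed the edgeR test for 0 of 11 in each mutant comparison, with 2 in the CG line and 0 in the CT line under 0.05 before adjustment. Between the lines 8 of 11 passed, against 52% of all genes tested. The 6 that were higher in the CT line included Cbfb, the shared partner subunit, at 0.27 ± 0.07 (edgeR adjusted p = 0.0100), and Wwtr1, the Hippo pathway coactivator TAZ, at 0.39 ± 0.08 (edgeR adjusted p = 0.00360). Runx1t1 and Tle2, a Groucho corepressor, were lower, with Tle2 at -1.29 ± 0.21. The partner subunit was thus higher in the line with less Runx1. The list median was 0.27. Tle1 and Rb1 had the smallest p in the CG mutants, at -0.38 ± 0.08 and -0.35 ± 0.15, and Runx1t1 and Yap1 in the CT mutants, at 0.61 ± 0.33 and 0.12 ± 0.08, none past the threshold.

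Of 15 tested transcription factors that act with or against RUNX2 and SP7 in skeletal cells, none passed in mutants, with 2 in the CG line and 1 in the CT line under 0.05 before adjustment. Between the lines 6 of 15 passed, against 52% of all genes tested. In the CT line 5 were lower, among them Msx2, Foxc1, Foxo1 and Atf4, and 1 was higher, the RUNX2 antagonist Zfp521, at a list median of -0.39. Foxo1 had a line difference of -1.02 ± 0.08 and Foxc1 one of -1.04 ± 0.08 (edgeR adjusted p = 6.37e-05 for each). Foxc1 and Zfp521 had the smallest p in the CG mutants, at -0.31 ± 0.12 and 0.49 ± 0.20. Atf4 and Foxa3 did so in the CT mutants, at -0.31 ± 0.11 and -0.43 ± 0.26.

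Among 24 regulators and partners of MEF2 and the class IIa deacetylases, which include 2 relatives of the 10 genes, Hdac4 and Mef2b, 12 were higher and 3 lower in the CT line, with a median of 0.21, and these 15 of 24 compare with 52% of all genes tested. The higher ones included the kinases Prkd1, Prkd3 and Camk2d and the 14-3-3 genes Ywhab, Ywhae, Ywhah, Ywhaq and Sfn, and the lower ones included Hdac4 and Camk1. Pth1r, the receptor for parathyroid hormone-related protein, had a line difference of 1.495 ± 0.15 and Mapk7, the MEF2-activating kinase ERK5, one of 0.84 ± 0.06, with edgeR adjusted p of 0.000159 and 3.45e-05. None of the 24 passed in mutants, with 2 in the CG line and 0 in the CT line under 0.05 before adjustment. Mef2b and Camk1 led in the CG line at 1.69 ± 0.37 and 0.55 ± 0.14, and Hdac4 and Ywhag in the CT line at -0.26 ± 0.11 and -0.25 ± 0.12.

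Targets of RUNX2, SP7 or MEF2C in hypertrophy and bone matrix split in the line comparison. Of 16, 7 were higher in the CT line, Col10a1, Bglap, Phex, Dmp1, Col1a1, Col1a2 and Sparc, and 4 were lower, Mmp13, Ihh, Alpl and Tnfsf11, with a median of 0.62, that is 11 of 16 called against 52% of all genes tested. Bglap and its near-identical neighbour Bglap2 can share reads and are uncertain. Col10a1, the collagen of hypertrophic cartilage, had 4651 and 4569 CPM in CT mutants and 4158 and 3571 CPM in CT wild types, against 2075 and 1421 CPM in CG mutants and 1929 and 1913 CPM in CG wild types. Mmp13, the collagenase of the late hypertrophic zone, had 157.0 and 248.2 CPM in CT mutants and 300.1 and 175.5 CPM in CT wild types, against 812.8 and 1565 CPM in CG mutants and 1713 and 2684 CPM in CG wild types. The best-known RUNX2 targets thus stood apart in opposite directions, at 1.20 ± 0.13 for Col10a1 and -2.88 ± 0.30 for Mmp13, each with no overlap between lines, with edgeR adjusted p of 0.000228 and 0.000177. In the mutants none of the 16 passed, with 1 in the CG line and 0 in the CT line under 0.05 before adjustment. The smallest p belonged to Ihh at -1.19 ± 0.38 and Mmp13 at -0.89 ± 0.39 in the CG line and Vegfa at -0.42 ± 0.21 and Sparc at -0.38 ± 0.21 in the CT line. Ihh rests on few counts, at 18 to 56 in CG libraries and 3 to 8 in CT libraries. So do Phex and Dmp1, at 4 to 14 and 3 to 15 counts in CG libraries.

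**Figure D5:**
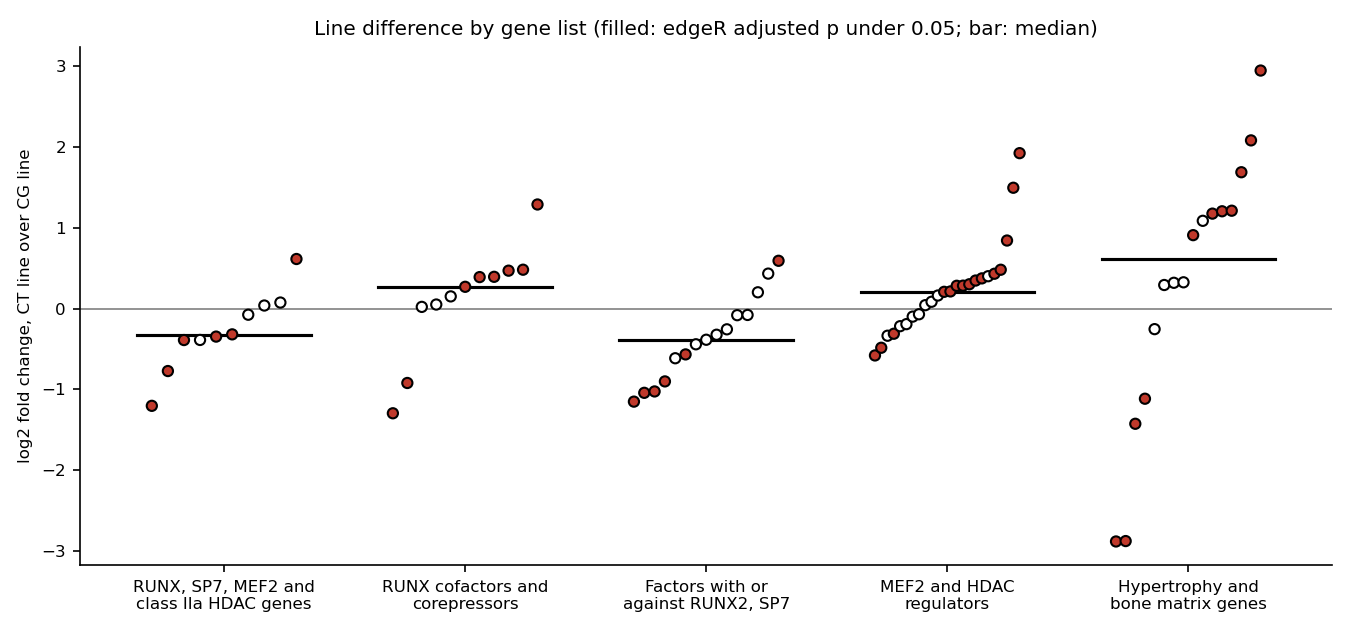
Line difference, CT over CG, as log2 fold change for each gene of 5 lists, with a bar at the list median and filled points for an edgeR adjusted p under 0.05. The 10 genes have a median of -0.33, the hypertrophy and bone matrix genes one of 0.62 with members on both sides.

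Among the 11504 genes whose mean log2-CPM reached 1, the profiles nearest to a gene were found as the root mean square difference of log2-CPM values centred on their own means, over the 8 libraries. For Runx2, whose own SD was 0.239, they were Tmem159 at 0.0599, Gla at 0.0714 and Tnfaip2 at 0.0728. Mef2c, with an SD of 0.320, had Mrpl17 at 0.0609, Nrm at 0.0650 and Prelid1 at 0.0658. Sp7, with an SD of 0.358, had no profile as close, the nearest being C4a at 0.150, Tmx4 at 0.168 and Meis2 at 0.184. C4a has a near-identical copy, C4b, with which it can share reads.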

How the data were processed

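RNA of 8 libraries was sequenced with DNBSEQ, per the series design text. Alignment software HISAT2 2.0.4 and the build mm9 appear in the submitters' processing notes. For the read counter the tool was not given in the sources used here. Per the file headers, the authors deposited for each gene an estimated count and the FPKM in every library. FPKM served for levels between genes and for alternatives. The authors' deposited comparison table gives log2 ratios and q-values and was searched for the 10 genes. Its genes with a q under 0.05 for CT against CG wild types were also counted by direction. A second expression table with 3 libraries was not used.

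Estimated counts, not whole for 2282 to 2518 genes per library, were rounded. edgeR 4.0.16 in R 4.3.3 (TMM, filterByExpr) was fitted with 4 group means over all 8 libraries, and quasi-likelihood tests were adjusted by Benjamini-Hochberg over 14359 genes at a threshold of 0.05. The SE of a log2 fold change is its size divided by the square root of F. CPM uses TMM library sizes. DESeq2 1.42.0, limma 3.58.1 on log2(FPKM + 1) or log2(FPKM + 0.1), other filters, a replicate block, a term for Y-linked transcripts and left-out libraries were alternatives. The procedure was tested on simulated data. The 2 libraries of each group differed by more than sampling noise. Promoters and miRNAs came from RefSeq GRCm38.p6 and 3′ UTRs from GENCODE M21.

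The members and gene lists were chosen with earlier results of these data known. Beside the 10 genes, the text names Hdac4 and Mef2b, the 2 tested genes of each list with the smallest unadjusted p in each mutant and line comparison, called genes of a list, and the 3 nearest profiles of Runx2, Sp7 and Mef2c.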

Additional observations from a re-analysis of the deposited data

How the results depend on the processing

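None of the 10 genes passed in a mutant comparison, in the mean of the mutant effects or in their difference under any alternative. In the line comparison 6 passed, and 4 did with limma on either FPKM scale, where all genes gave a median of 0.11 (FPKM + 1) or 0.16 (FPKM + 0.1). Leaving out 1 library gave 4 to 7. With a replicate block 5 passed, Runx2 having an edgeR adjusted p of 0.0578. Deviations of same-numbered libraries from their group means correlated over all genes tested at -0.0892 in the CG line and 0.248 in the CT line. With 2 libraries a group, the deviations of replicate 2 mirror those of replicate 1 and add nothing, so that no pairing is established.

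Over all genes, edgeR called 1 in the CG and 1 in the CT mutants, 0 in their mean and 3 in their difference. DESeq2 called 213, 20, 206 and 38. Without CG mutant replicate 2 the counts were 522 (CG), 319 (mean) and 97 (difference). Without CT mutant replicate 2 the CT count was 4.

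Of 770 alternative values of the 10 genes, 694 kept direction and side of the threshold, 17 lost and 5 gained the call and 54 changed sign, none of them called. Changed signs on FPKM + 1 and FPKM + 0.1 were -0.04 and -0.05 for Hdac5 in the CG line, 0.01 and 0.01 for Runx1 and 0.03 and 0.04 for Runx2 in the CT line, -0.07 and -0.07 for the Mef2d difference of effects and 0.09 and 0.10 for Hdac7 between lines. A Y-linked term gave -0.10 for Hdac5 in the CG line and -0.06 for the Mef2d difference. The cause was not tested.

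Leaving out 1 library gave CG effects of -0.02 to 0.23 (Runx1), -0.06 to 0.11 (Mef2c), -0.11 to 0.02 (Mef2d), -0.09 to 0.09 (Hdac5) and -0.47 to 0.18 (Hdac7). The CT effect ran over -0.20 to 0.14 (Runx1), -0.22 to 0.21 (Runx2), -0.49 to 0.13 (Runx3), -0.21 to 0.11 (Mef2a), -0.18 to 0.06 (Mef2d), -0.13 to 0.31 (Hdac7) and -0.16 to 0.27 (Hdac9). The mean effect ran over -0.04 to 0.13 (Runx1), -0.21 to 0.01 (Runx2), -0.11 to 0.01 (Mef2d) and -0.19 to 0.14 (Hdac7). The difference of effects ran over -0.03 to 0.31 (Runx1), -0.41 to 0.02 (Runx2), -0.46 to 0.17 (Runx3), -0.10 to 0.14 (Mef2d) and -0.57 to 0.08 (Hdac7). The line difference ran over -0.13 to 0.24 (Sp7), -0.01 to 0.15 (Mef2a) and -0.22 to 0.10 (Hdac7). With 2 libraries a group, effects of the size of that of Sp7 could not be separated from the spread, and Sp7, Mef2c and Hdac9 rest on few counts.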

Other observations

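Mef2b, the fourth MEF2 gene, had 3.91 and 3.05 CPM in CG mutants, against 0.688 and 1.48 CPM in CG wild types. In the CT line it had 1.37 and 1.56 CPM in mutants, against 2.05 and 1.73 CPM in wild types. Mutants lay above wild types in the CG line and below them in the CT line. Of all genes tested, 45.6% in the CG line and 33.6% in the CT line also had no overlap, in either direction. The difference of the mutant effects was 2.06 ± 0.52, with an edgeR adjusted p of 0.772. Its estimated counts were low, at 19.45 to 94, and not whole in part of the libraries, and its level is uncertain for these reasons.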
